A study of Xenopus laevis with 9 samples.

Results

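The cytosolic ribosomal protein genes are the rpl and rps genes, whose products form the large and the small subunit of the cytoplasmic ribosome together with ribosomal RNA. They were taken from the deposited count tables of Xenopus laevis animal pole explants by name alone, as every symbol made of rpl, rps or rplp, a number, an optional suffix (a, x, y, l or l1) and the ending .L or .S. This gave 140 of 51061 rows, 84 of the large and 56 of the small subunit, 75 on the L and 65 on the S subgenome. They carried 135 distinct symbols of 78 genes, because 4 symbols were listed more than once, on 9 rows. The kinases of the rps6k family and the mitochondrial mrp genes were not included. Xenopus laevis is allotetraploid, so most genes have an L and an S copy, called homeologs.

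Every ribosome contains nearly all of these proteins in equal numbers, and cells therefore keep their synthesis in proportion. The mRNAs of ribosomal proteins share a terminal oligopyrimidine (TOP) start in vertebrates, through which their translation responds to growth signals. The Xenopus egg is loaded with maternal ribosomes, and the early embryo makes new ribosomal protein mRNA only after zygotic transcription has begun.

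There were 3 groups of 3 libraries, all from animal pole explants of embryos with a wild-type genotype. The St11.5 NPB explants were in a neural plate border state at stage 11.5, labelled as treated with Wnt8a and Chordin mRNA. The St9 soxb1 morphant explants were blastula explants at stage 9 from embryos given soxb1 morpholinos, which block translation of sox2 and sox3 in both homeologs. The St9 wild type explants were blastula explants of stage 9 with no treatment and were the reference for both comparisons. Each sample pooled several explants. Because the morpholinos act on translation, the sox2 and sox3 transcripts do not test the labels. NPB and wild type libraries differed at once in stage, injected mRNA and count table, which cannot be told apart.

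Library totals ranged between 25796466 and 48839143 counts, so that a count of 3 was worth between 0.0614 and 0.116 CPM (counts scaled to the library total). The NPB libraries had a summed level of 1667 to 2901 CPM for 15 neural plate border marker rows (pax3, zic1, msx1 and others), against 336 to 395 CPM in wild type, and none of these rows was at 0. Summed mesoderm and endoderm markers (16 rows) reached 3.4 to 36.0 CPM in NPB, against 144 to 255 CPM in wild type. Blastula pluripotency markers (14 rows) summed to 1270 to 2454 CPM in NPB, against 2948 to 3458 CPM in wild type. Epidermal markers (10 rows) summed to 297 to 613 CPM in NPB, against 224 to 291 CPM in wild type, and neural, neural crest and placode markers (19 rows) to 466 to 650 CPM in NPB, against 586 to 967 CPM in wild type. In the NPB test described below, 5 of the 14 pluripotency rows were called higher and 4 lower. For neural, neural crest and placode markers, 6 of 12 tested rows were called higher and 2 lower. Among all genes tested, 26.9% were called higher and 26.7% lower. The sums of these lists thus do not describe every row in them. Except for neural, neural crest and placode markers, these sums did not overlap between NPB and wild type, like the ribosomal protein share below. The part of these markers in the results below was not tested. In explants, fewer cells of a type and less RNA per cell cannot be told apart.

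The ribosomal protein genes took a larger share of the library counts in NPB explants than in blastula explants. They made up 1.78%, 1.18% and 1.43% of all counts in NPB replicates 1, 2 and 3, against 0.690%, 0.734% and 0.585% in wild type replicates 1, 2 and 3. The groups did not overlap, and the mean share was 1.46% ± 0.303 in NPB and 0.670% ± 0.0767 in wild type (SD, n = 3 each), a ratio of 2.18. Counting error was small beside this spread, with a 95% Wilson interval of 1.775 to 1.784% for NPB replicate 1, the highest library. In soxb1 morphants the share was 0.705%, 0.704% and 0.675%, a mean of 0.694% ± 0.0173 (SD, n = 3), and overlapped with wild type.

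**Figure D1:**
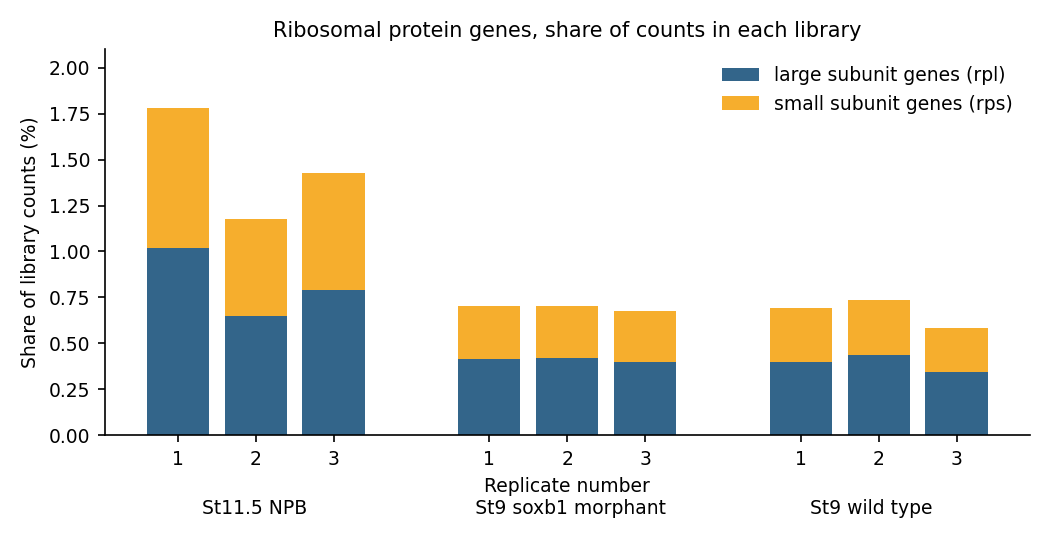
Share of all counts in each library (%, vertical axis) taken by ribosomal protein genes, with large subunit genes in blue and small subunit genes in yellow, for replicates 1 to 3 of St11.5 NPB, St9 soxb1 morphant and St9 wild type. The NPB bars reach 1.18 to 1.78%, and all St9 bars lie between 0.585 and 0.734%.

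The NPB libraries were not alike. Replicate 1 was the highest of the NPB libraries in 121 of 134 rows tested and replicate 2 the lowest in 125, on the CPM scale. Replicate 1 also had the highest sum of neural plate border markers, at 2901 CPM against 1667 and 1783 CPM in replicates 2 and 3, and the lowest sum of pluripotency markers, at 1270 CPM against 2290 and 2454 CPM. Its epidermal sum was the highest too, at 613 CPM against 297 and 304 CPM. Lowest in replicate 1 were also the sums of neural, neural crest and placode markers (466 against 650 and 594 CPM) and of mesoderm and endoderm markers (3.39 against 9.71 and 36.0 CPM). Without replicate 1 the mean NPB share was 1.30%, and its ratio to wild type was 1.94.

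Both subunits had a larger share in NPB. The large subunit took 0.819% ± 0.185 of counts in NPB and 0.394% ± 0.0450 in wild type, and the small subunit 0.642% ± 0.118 in NPB and 0.276% ± 0.0325 in wild type (SD, n = 3 each). The ratio of large to small subunit counts was 1.27 ± 0.0560 in NPB, 1.45 ± 0.0324 in morphants and 1.43 ± 0.0474 in wild type. All NPB libraries were below all St9 libraries in this ratio, the closest being NPB replicate 1 at 1.33 and wild type replicate 1 at 1.38.

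Which of these genes were most abundant was read in the NPB libraries from TPM, a scaled transcript abundance that corrects for transcript length. In TPM the ribosomal protein genes made up 4.83%, 3.16% and 3.85% of the transcripts of NPB replicates 1, 2 and 3. With the rows of each gene summed, 77 of the 78 genes had a mean of at least 10 TPM, and their median was 482 TPM with quartiles of 322 and 667 TPM. The 90th percentile was 3.31 times the 10th. The median was 456 TPM over 47 large subunit genes and 591 TPM over 30 small subunit genes.

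The highest of all was rps20, a protein of the head of the small subunit, at 2439, 1644 and 1911 TPM. It stood apart from the next gene, rps27a, which encodes a fusion of ubiquitin with a small subunit protein, at 1159, 949 and 1004 TPM. Among the next genes, rpl3 (883 ± 259 TPM), whose product lies near the peptidyl transferase centre, and rps12 (870 ± 188 TPM) did not differ beyond their spread (SD, n = 3 each). The 5 lowest genes were rpl19 at 132 ± 48.3 TPM, rps24 at 80.1 ± 18.0 TPM, rps27l at 28.7 ± 3.05 TPM, rpl22l1 at 18.6 ± 2.66 TPM and rpl3l at 0.07 ± 0.05 TPM (SD, n = 3 each). Of these, rpl3l, rpl22l1 and rps27l are paralogues of rpl3, rpl22 and rps27, and the product of rpl3l is known from mammalian muscle. By counts, rps24 had only 0.163, 0.0667 and 0.102 CPM in NPB replicates 1, 2 and 3, so its level and rank are uncertain.

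**Figure D2:**
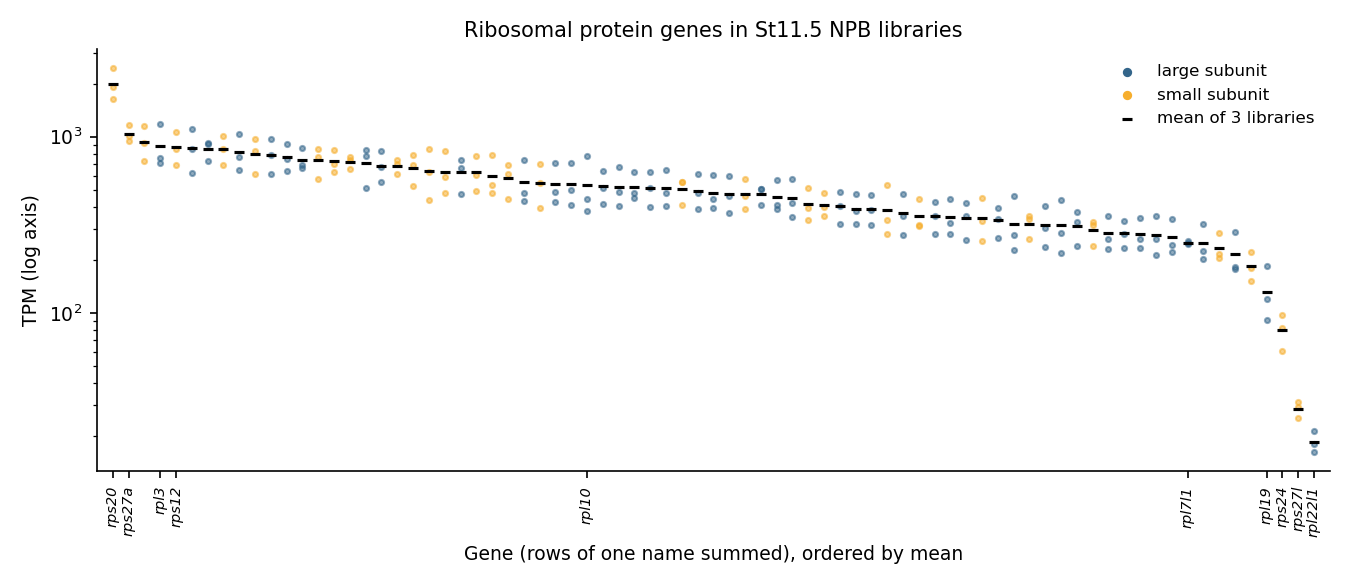
Level of each ribosomal protein gene in the 3 St11.5 NPB libraries (points, TPM on a log axis; horizontal mark, mean), with the rows of a gene summed and genes ordered by mean, 10 of them named, blue for the large and yellow for the small subunit. The 77 genes with a mean of at least 10 TPM are shown, led by rps20 at 1998 TPM and ending with rpl22l1 at 18.6 TPM.

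The spread over libraries was shared by most genes. Replicate 1 was the highest of the NPB libraries in 68 of these 77 genes, and the coefficient of variation over the libraries had a median of 22.0%. The steadiest of these 77 genes was rpl7l1, known in human cells as a nucleolar relative of rpl7, with 257, 250 and 245 TPM and a coefficient of variation of 2.33%. The least steady was rpl10, a large subunit protein that joins late in assembly, with 782, 381 and 443 TPM and a coefficient of variation of 40.3%.

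The comparison of NPB with wild type asks how the set differed between the neural plate border state and the blastula from which such explants derive. Nearly all ribosomal protein genes were higher in NPB. By the quasi-likelihood test of edgeR with Benjamini-Hochberg adjustment over all genes, 132 of the 134 rows tested were higher and 0 lower at an adjusted p of 0.05 or less, while 26.9% of all 21981 genes tested were called higher and 26.7% lower. No row had a lower level at an unadjusted p under 0.05, which 59.4% of all genes reached in either direction. DESeq2 also called 132 rows higher and 0 lower, against 29.3% and 27.1% of all genes. The median log2 fold change was 1.88, with a range of -0.05 to 3.34, against a median of -0.04 over all genes tested. It was at least 1 in 126 rows and at least 2 in 56. On the same normalised scale, 132 rows had NPB libraries above all wild type libraries, as did 31.5% of all genes, and 0 rows had them below, as did 32.5% of all genes. In 55 of 56 homeolog pairs every tested row was called higher, and the share of all homeolog pairs with this outcome is not given. The adjusted p of the 132 rows lay between 8.36e-05 and 0.0271.

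The size of this difference depended on what the levels were set against. TMM scaling, which takes most genes as unchanged, was used in the test. On that scale 26.9% of all genes were called higher and 26.7% lower, so this assumption is doubtful here. The TMM factors were 0.718 to 0.835 in NPB and 1.26 to 1.29 in wild type. The median of all genes moved by 0.687 to -0.72 with library totals alone. With totals alone, 112 rows were higher and 0 lower, against 16.5% and 44.3% of all genes, and the median over the rows tested was 1.17. The 20 rows that lost the call had a log2 fold change of 0.06 to 1.07 with totals alone. Without NPB replicate 1 the median on the TMM scale was 1.62.

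Nearly every row of each subunit was called higher on the TMM scale. All 80 rows tested of the large subunit were called higher, with a median log2 fold change of 1.86, and 52 of 54 of the small subunit, with a median of 1.96. The values below are CPM of the library total, so that per-library levels show less of a difference than the fold changes, which are on the TMM scale.

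The largest difference was that of rpl8.L (gene13824), the L copy of a large subunit protein at the peptidyl transferase centre. It had 133, 62.2 and 82.6 CPM in NPB, against 12.5, 15.8 and 17.03 CPM in wild type. Every NPB library was above every wild type library, and the log2 fold change was 3.34 ± 0.35 (SE, adjusted p = 1.99e-04). The other copy, rpl8.S (gene5182), had 94.7, 50.6 and 66.7 CPM in NPB, against 48.1, 46.3 and 35.1 CPM in wild type. It was also higher, with a smaller log2 fold change of 1.43 ± 0.30 (SE, adjusted p = 0.00409).

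The next rows by size were all of the small subunit. The level of rps21.S was 60.05, 34.5 and 41.3 CPM in NPB, against 7.71, 9.05 and 7.67 CPM in wild type (log2 fold change 3.19 ± 0.30 SE, adjusted p = 1.24e-04). The level of rps2.L, whose product lies at the entry of the mRNA channel, was 225, 161 and 162 CPM in NPB, against 35.1, 42.0 and 25.5 CPM in wild type (log2 fold change 3.13 ± 0.27 SE, adjusted p = 8.87e-05). For rps9.S it was 98.2, 74.0 and 69.1 CPM in NPB, against 20.5, 15.2 and 15.7 CPM in wild type (log2 fold change 2.94 ± 0.26 SE, adjusted p = 9.84e-05). The groups of these rows were far apart in every library. The fifth was rps3a.L with 102, 54.5 and 78.4 CPM in NPB, against 14.5, 18.1 and 19.6 CPM in wild type (log2 fold change 2.89 ± 0.31 SE, adjusted p = 1.91e-04).

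The only rows tested that were not called were the copies of rps27l, which in human cells is a target of p53. The L copy had 6.94, 7.31 and 8.56 CPM in NPB, against 7.25, 12.3 and 18.4 CPM in wild type, and the groups overlapped (log2 fold change -0.05 ± 0.35 SE, adjusted p = 0.923). The S copy was near the limit of detection, with 0.190, 1.07 and 0.307 CPM in NPB, against 0.310, 0.923 and 1.02 CPM in wild type (log2 fold change 0.12 ± 0.76 SE, adjusted p = 0.912). The namesake rps27 was higher in both copies, with a log2 fold change of 1.85 ± 0.16 for rps27.L (SE, adjusted p = 8.36e-05) and 1.46 ± 0.20 for rps27.S (SE, adjusted p = 5.32e-04). For rps27.L the values were 153, 142 and 175 CPM in NPB, against 71.1, 74.4 and 65.9 CPM in wild type.

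The smallest changes among called rows were those of rpl12.L, rplp0.S and rps12.S. The level of rpl12.L was 117, 101 and 124 CPM in NPB, against 117, 127 and 83.7 CPM in wild type (log2 fold change 0.76 ± 0.20 SE, adjusted p = 0.0131). For rplp0.S it was 68.3, 63.5 and 56.6 CPM in NPB, against 66.5, 61.4 and 47.8 CPM in wild type (log2 fold change 0.80 ± 0.21 SE, adjusted p = 0.0121). For rps12.S it was 116, 120 and 113 CPM in NPB, against 133, 106 and 68.7 CPM in wild type (log2 fold change 0.88 ± 0.24 SE, adjusted p = 0.0156). The groups of all 3 rows overlapped in CPM of the total. With library totals these 3 rows had log2 fold changes of 0.06, 0.10 and 0.18 with adjusted p of 0.795, 0.676 and 0.524, and none was called.

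The stalk of the large subunit, which recruits elongation factors, is built from rplp0, rplp1 and rplp2. The anchoring protein rplp0 had its L copy at 200, 108 and 140 CPM in NPB, against 69.0, 84.5 and 83.6 CPM in wild type (log2 fold change 1.64 ± 0.27 SE, adjusted p = 0.00148), a larger difference than that of its S copy above. The log2 fold change was 1.37 ± 0.23 for rplp1.L (SE, adjusted p = 0.00146), 1.999 ± 0.21 for rplp2.L (SE, adjusted p = 1.91e-04) and 1.56 ± 0.35 for rplp2.S (SE, adjusted p = 0.00620).

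The products of rpl5 and rpl11 bind 5S ribosomal RNA and, in mammals, Mdm2. The level of rpl5.L was 317, 191 and 266 CPM in NPB, against 150, 153 and 138 CPM in wild type (log2 fold change 1.52 ± 0.23 SE, adjusted p = 9.10e-04). For rpl11.L it was 128, 80.8 and 125 CPM in NPB, against 82.5, 101 and 53.6 CPM in wild type (log2 fold change 1.19 ± 0.29 SE, adjusted p = 0.00861), and with totals alone neither rpl11.L nor rpl11.S was called (adjusted p = 0.156 and 0.0644). The protein rps6, phosphorylated by the S6 kinases, had its L copy at 227, 145 and 169 CPM in NPB, against 45.8, 68.8 and 39.1 CPM in wild type (log2 fold change 2.53 ± 0.29 SE, adjusted p = 2.90e-04).

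Of the other paralogues, rpl22l1, rpl7l1 and rps4x were higher, and so were the namesakes of the first and second. The log2 fold change was 1.75 ± 0.27 for rpl22l1.L (SE, adjusted p = 0.00104), beside 1.23 ± 0.28 for rpl22.L (SE, adjusted p = 0.00689) and 1.22 ± 0.23 for rpl22.S (SE, adjusted p = 0.00248). It was 1.58 ± 0.20 for rpl7l1.L (SE, adjusted p = 3.99e-04), beside 2.198 ± 0.27 for rpl7.L (SE, adjusted p = 3.90e-04). Both copies of rps4x were higher, at 2.55 ± 0.25 for the L copy (SE, adjusted p = 1.36e-04) and 1.62 ± 0.20 for the S copy (SE, adjusted p = 3.85e-04). The gene rpl3.L, with no S row, was higher by 1.79 ± 0.28 (SE, adjusted p = 0.00118), and no row was named rps4y.

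**Figure D3:**
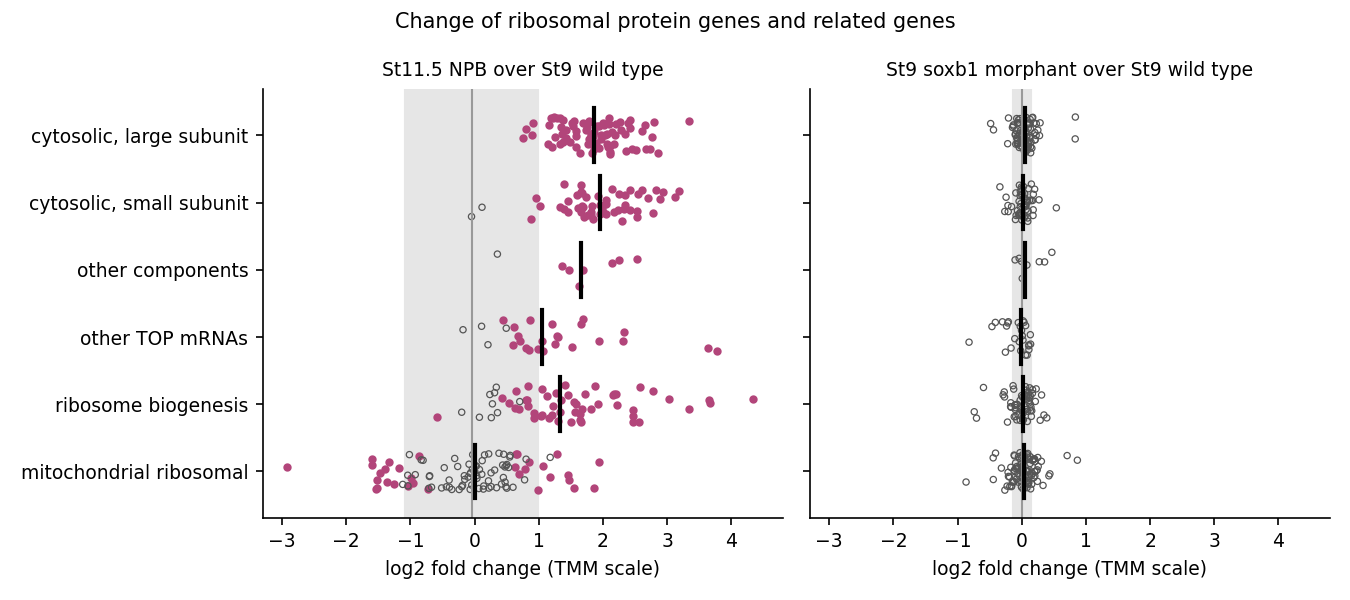
Log2 fold change on the TMM scale (horizontal axis) of each row of the ribosomal protein genes by subunit and of 4 related gene lists, for St11.5 NPB over St9 wild type (left) and St9 soxb1 morphant over St9 wild type (right). Filled points passed an adjusted p of 0.05 without a replicate block, black bars are list medians, and the grey band and line are the quartiles and median of all genes tested. Cytosolic medians lie at 1.86 and 1.96 on the left and at 0.05 and 0.01 on the right.

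The filter on low counts left out 6 rows in both comparisons. They were rpl3l.L, rpl3l.S, the second copy of rpl37.S (gene27418), a copy of rpl35a.S (gene22290) and both rows of rps24.L (gene10788 and gene34335). The row gene27418 had 0 counts in all 9 libraries. The row gene34335 of rps24.L had 0.163, 0.0667 and 0.102 CPM in NPB by counts, but 81.9, 61.3 and 97.2 TPM by the RSEM estimate. A copy of rpl35a.S (gene40692) had 1.63, 0.868 and 1.06 CPM, but 432, 268 and 310 TPM. How the counting treated reads that fit several copies is not given in the sources used here, so levels of these rows are uncertain.

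Other ribosome components were mostly higher too, whereas rows of mitochondrial ribosomal proteins were called in both directions in similar numbers. Of 8 rows of ribosome components outside the naming rule (among them rpsa, rack1 and fau), 7 were higher and 0 lower, with a median log2 fold change of 1.66. The largest were those of rpsa, at 2.53 for rpsa.S and 2.25 for rpsa.L, and the smallest those of rack1.S, at 1.37 for gene10324 and 0.36 for gene35129, which was not called. Of 101 tested rows of mitochondrial ribosomal proteins, 15 were higher and 17 lower, with a median of 0.01. All genes tested were called higher in 26.9% and lower in 26.7%, so mitochondrial rows were called less often in both directions. Their highest log2 fold changes were 1.94 for mrpl27.L and 1.86 for mrpl10.S, and their lowest -2.92 for mrps11.L and -1.60 for mrpl2.L.

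Factors of ribosome biogenesis were mostly higher as well, with 51 of 61 rows higher and 1 lower and a median log2 fold change of 1.34. The largest values were those of the pre-ribosome assembly factors wdr12.S at 4.34 and utp15.S at 3.67. The only row called lower was sbds.L, whose product takes part in late maturation of the large subunit, at -0.59 (adjusted p = 0.0333), and ltv1.L was at -0.20 (adjusted p = 0.323). Among 27 rows of other mRNAs known to be TOP mRNAs in mammals, 23 were higher and 0 lower, with a median of 1.05. Both lists stand against 26.9% of all genes called higher and 26.7% lower. The elongation factor copies eef1a1.S and eef1a1.L led at 3.78 and 3.64, while eef1d.S (0.11) and tpt1.S (-0.18) were not called. With library totals alone the TOP list had 11 higher and 0 lower, biogenesis 35 higher and 6 lower, and mitochondrial ribosomal proteins 4 higher and 47 lower, where 16.5% of all genes were called higher and 44.3% lower. The count of mitochondrial rows called lower was thus near that of all genes.

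In the second comparison, between soxb1 morphant and wild type blastula explants, the ribosomal protein genes as a set stayed near the wild type level. By the edgeR test without a replicate block, 0 of 134 rows were called in either direction, as were 0% of all 21659 genes tested, and 4 rows had an unadjusted p under 0.05, against 5.72% of all genes. The median log2 fold change was 0.03, with a range of -0.49 to 0.84, and 112 rows lay within 0.2 of no change. On normalised counts 5 rows had morphant libraries above all wild type libraries and 1 had them below, against 4.82% and 5.36% of all genes. DESeq2 without a block called 2 rows higher (rpl4.L and rpl4.S) and 1 lower (rpl5.S), while it called 0.826% and 1.19% of all genes.

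The replicate numbers of these 6 libraries paired them, so results of a model that includes that number as a block are given beside those without it. With the block, 5 rows were higher and 2 lower, against 5.75% and 6.71% of all genes. In CPM, morphant levels were above wild type in 69 of 134 rows in pair 1, 45 in pair 2 and 127 in pair 3, and the ratio of the summed share was 1.02, 0.958 and 1.15 in these pairs. The share of all genes above wild type in each pair is not given, so these counts are not read as particular to the set.

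Both copies of rpl4, whose product lines the exit tunnel of the large subunit, were higher in morphants. The L copy (gene4958) had 312, 331 and 235 CPM in morphants, against 153, 196 and 142 CPM in wild type. The S copy (gene11398) had 97.6, 119 and 99.3 CPM in morphants, against 52.0, 70.9 and 54.0 CPM in wild type. No morphant library overlapped with a wild type library for either copy. The log2 fold changes with the block were 0.83 ± 0.072 and 0.84 ± 0.074 (SE, adjusted p = 2.204e-06 for both). Without the block they were 0.84 ± 0.17 and 0.83 ± 0.15 with adjusted p of 0.236 and 0.192.

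Lower levels were called for rpl5.S and rpl7l1.L. The S copy of rpl5 (gene36280) had 79.7, 82.4 and 85.4 CPM in morphants, against 107, 131 and 108 CPM in wild type, with no overlap (log2 fold change with the block -0.48 ± 0.079 SE, adjusted p = 7.41e-04; 0.325 without the block). Its L copy (gene13023) had 150, 147 and 144 CPM in morphants, against 150, 153 and 138 CPM in wild type, which overlapped. The row rpl7l1.L (gene11995) had 84.8, 89.2 and 68.8 CPM in morphants, against 114, 132 and 83.2 CPM in wild type. It was lower in each pair although the groups overlapped (log2 fold change with the block -0.43 ± 0.076 SE, adjusted p = 0.00138; 0.921 without the block).

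**Figure D4:**
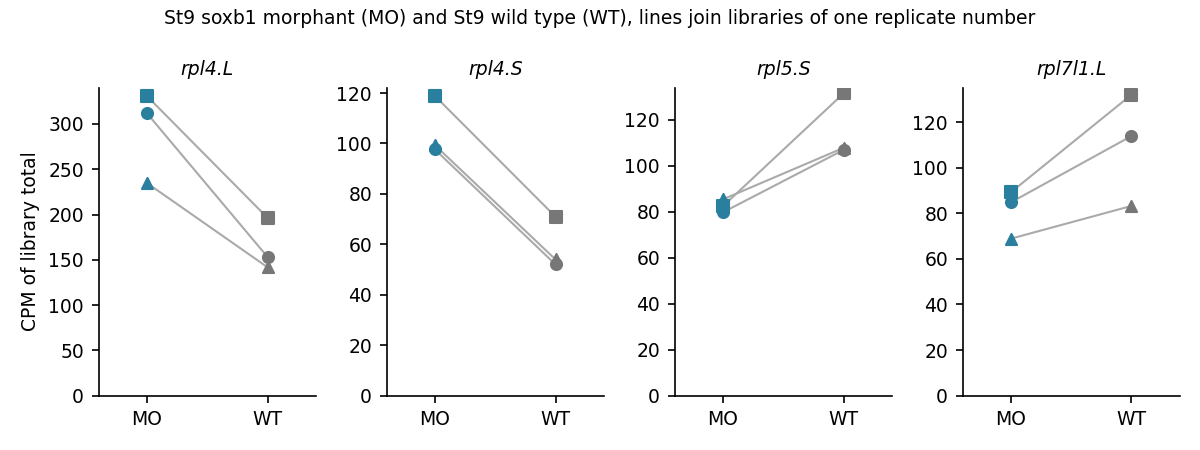
CPM of the library total (vertical axes, from 0) of rpl4.L, rpl4.S, rpl5.S and rpl7l1.L in St9 soxb1 morphant (MO, blue) and St9 wild type (WT, grey) libraries, with a line joining the libraries of each replicate number. The lines of both rpl4 copies all fall towards wild type, and those of rpl5.S and rpl7l1.L all rise.

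Weaker blocked calls were those of rpl15.L (log2 fold change 0.28 ± 0.075 SE, adjusted p = 0.0204) and rps27.L (0.27 ± 0.079 SE, adjusted p = 0.0357). These calls did not hold throughout when a pair was left out. Without pair 1, 2 or 3 the adjusted p of rpl15.L was 0.0820, 0.137 and 0.0644. For rps27.L it was 0.280 without pair 1 and 0.177 without pair 3, and 0.0573 by DESeq2 with the block. Fits without pair 1, 2 or 3 hold fewer libraries. Their log2 fold changes were 0.34, 0.24 and 0.25 for rpl15.L and 0.25, 0.35 and 0.19 for rps27.L. The rows rpl4.L, rpl4.S, rpl5.S and rpl7l1.L kept the blocked call whichever pair was left out. They also kept it by DESeq2 with the block, which called 4 rows higher and 2 lower, against 4% and 5.18% of all genes. Without pair 3, the blocked fit called 7 rows lower in place of 2. The share of all genes called in that fit is not given, so this count has no background to be read against.

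The other rows at the ends of the range were not called in either fit. Below zero they were rps27l.S at -0.34, rps9.S at -0.26 and rps21.L at -0.24, and above zero rpl34.S at 0.29, all as log2 fold change without the block. The comparisons share the wild type libraries, so their values are only set side by side. For rpl4.L the log2 fold change was 0.84 in morphants and 1.74 in NPB, for rpl5.S -0.49 and 1.32 and for rpl7l1.L -0.44 and 1.58, all without a block.

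Of the related lists, the blocked fit called 2 of 8 ribosome components higher, rpsa.L at 0.48 (adjusted p = 0.00196) and rpsa.S at 0.28 (adjusted p = 0.0189). It called 3 mitochondrial rows higher and 1 lower of 100, 1 biogenesis row higher and 6 lower of 61, and 0 TOP rows higher and 2 lower of 27, where 5.75% of all genes were called higher and 6.71% lower. Without the block, the highest and lowest log2 fold changes among components were those of rpsa.L (0.47), rack1.S gene35129 (0.36), fau.L (-0.04) and rack1.S gene10324 (-0.10). Among mitochondrial rows they were those of mrpl33.L (0.87), mrps11.L (0.71), mrpl46.L (-0.45) and mrps25.L (-0.87), and in biogenesis wdr12.S (0.39), polr1e.L (0.35), rrs1.S (-0.71) and polr1a.L (-0.74). In the TOP list they were eif3l.L (0.14), tpt1.L (0.13), tpt1.S (-0.47) and eif4b.L (-0.82). Of all these, rpsa.L, mrps11.L, mrps25.L, polr1e.L, rrs1.S, polr1a.L and eif4b.L passed with the block. Neural plate border markers summed to 134 to 185 CPM in morphants, against 336 to 395 CPM in wild type. Mesoderm and endoderm markers summed to 277 to 358 CPM in morphants, against 144 to 255 CPM in wild type, and neural, neural crest and placode markers to 1056 to 1458 CPM in morphants, against 586 to 967 CPM in wild type. These 3 sums did not overlap between the groups, while those of pluripotency markers (3066 to 3720 CPM in morphants, 2948 to 3458 CPM in wild type) and epidermal markers (230 to 349 CPM in morphants, 224 to 291 CPM in wild type) did. The neural, neural crest and placode list holds sox2 and sox3, the targets of the morpholinos. With the block, 4 of its 9 tested rows were called higher and 3 lower. The part of these markers in the changes was not tested.

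The balance of the L and S copies was followed in 57 pairs. Over all pairs together, the L copies took 52.9% ± 0.717 of pair counts in NPB, 52.3% ± 0.373 in morphants and 51.1% ± 0.594 in wild type (SD, n = 3 each). Count shares are not corrected for the lengths of the copies, so a share is read here across groups and not as a ratio of molecules. Among the 56 pairs other than rpl3l, the mean L share lay between 40% and 60% in 31 pairs in NPB and in 28 in wild type.

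The pairs farthest from an equal split in wild type were rps27l, rpl13, rps19, rps21 and rps12. The L share of rps27l was 95.9%, 93.0% and 94.7% in wild type libraries. The mean L share in wild type was 5.62% ± 1.58 for rpl13, 9.58% ± 2.88 for rps19, 15.2% ± 3.51 for rps21 and 15.7% ± 4.46 for rps12 (SD, n = 3 each).

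Between NPB and wild type the ratio of L to S was called changed in a minority of pairs. A pair that was not called is not shown to be unchanged. By limma on the log2 ratio of L to S, with adjustment over all 5495 pairs tested, 7 of 56 pairs shifted toward L and 5 toward S, against 20.1% and 16.9% of all pairs. An unadjusted p under 0.05 was reached by 19 of the 56 pairs, and the share of all pairs at that limit is not given. The median absolute change of the log2 ratio was 0.34 over the 56 pairs and 0.77 over all pairs. In 11 pairs the copy with more counts differed between NPB and wild type, and 5 of these were among the called pairs. The share of all pairs with such a switch is not given, so this count is not read as particular to the set.

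The pair that shifted most was rpl8. Its L copy took 58.4%, 55.2% and 55.3% of pair counts in NPB, against 20.6%, 25.4% and 32.7% in wild type, with 95% Wilson half-widths of at most 2.32 points in any library. The log2 ratio changed by 1.88 ± 0.26 (SE, adjusted p = 0.00202), and the majority copy was L in NPB and S in wild type. For rps12 the L share was 47.5%, 28.9% and 39.0% in NPB, against 11.1%, 15.9% and 19.98% in wild type (change 1.77 ± 0.36 SE, adjusted p = 0.00863), with 2 rows summed as its L copy. The groups of both pairs were apart. For rps4x it was 59.9%, 59.0% and 59.6% in NPB, against 44.0%, 45.7% and 39.8% in wild type (change 0.95 ± 0.15 SE, adjusted p = 0.00286).

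The largest shifts toward S were those of rps9 and rpl12. For rps9 the L share was 29.4%, 29.0% and 31.4% in NPB, against 44.6%, 54.4% and 54.2% in wild type (change -1.29 ± 0.23 SE, adjusted p = 0.00514). For rpl12 it was 39.1%, 39.8% and 41.3% in NPB, against 53.6%, 58.7% and 55.5% in wild type (change -0.93 ± 0.15 SE, adjusted p = 0.00329). The other pairs called toward L were rps23, rpl6, rps25 and rpl4, and those toward S rpl36, rpl34 and rps27a.

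**Figure D5:**
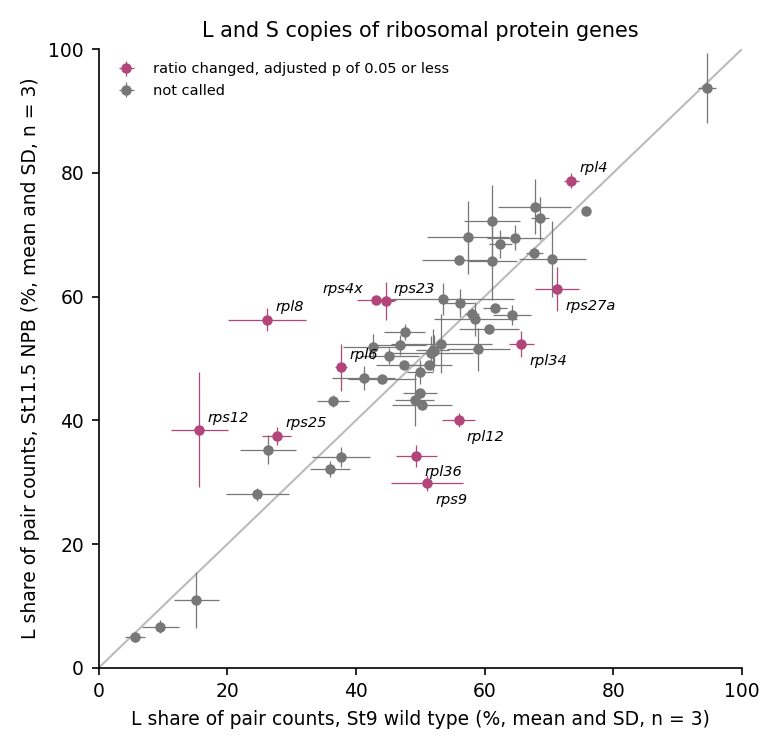
Mean share of the L copy in the counts of each homeolog pair (%, with SD, n = 3), St11.5 NPB on the vertical and St9 wild type on the horizontal axis, for 56 pairs, with the 12 pairs whose ratio changed at an adjusted p of 0.05 or less in colour and named. Points on the diagonal have the same share in both groups, and rpl8 lies farthest above it, at 56.3% in NPB and 26.2% in wild type.

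The TPM of the NPB libraries gave another split for some pairs. The L share in TPM differed from that in counts by a median of 4.64 points over the 57 pairs and by more than 10 points in 15 of them, and the majority copy was the same in 46. For rpl8 and rps9 the mean L share in TPM was 57.1% and 32.8%, close to the 56.3% and 29.9% of counts. For rps12 it was 63.4% in TPM but 38.5% in counts, for rpl12 59.8% in TPM but 40.1% in counts, and for rps25 84.5% in TPM but 37.5% in counts, so that which copy was in excess in these pairs is not settled by the files.

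Between morphant and wild type, 0 of 56 pairs changed their ratio without the block, where 0% of all 5441 pairs did. An unadjusted p under 0.05 was reached by 1 of the 56, and the share of all pairs at that limit is not given. With the block, 2 pairs shifted toward L and 0 toward S, against 5.29% and 5.46% of all pairs. For rpl5 the L share was 65.3%, 64.0% and 62.7% in morphants, against 58.4%, 53.8% and 56.2% in wild type, with no overlap (change with the block 0.48 ± 0.06 SE, adjusted p = 0.00483; 0.482 without the block). It kept the blocked call whichever pair was left out. The call for rpl15 (change with the block 0.26 ± 0.07 SE, adjusted p = 0.04997) was lost whichever pair was left out. The changes for rps21 (-0.33) and rps9 (0.25) were not called in either fit. For rpl4 the ratio changed by -0.01 ± 0.14 without the block (SE, adjusted p = 0.9997), and the L share was 73.3% ± 2.95 in morphants and 73.5% ± 1.12 in wild type (SD, n = 3 each).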

How the data were processed

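RNA was sequenced in 9 libraries of animal pole explants, 3 per group, with groups and replicate numbers from the sample titles. The authors trimmed reads with fastp, aligned them to genome version 9.2 with STAR and deposited raw HTSeq counts per gene, in a table for St9 and another for NPB. The authors also deposited TPM from RSEM for NPB. Their deposited table of log2 fold changes and p-values for morphants was not used. Versions, annotation release and strand setting are not given in the sources used here. The names were compared with RefSeq v10.1, which held 131 of the 135 symbols, and no coordinates are given. The members and lists were chosen with earlier results of these data known. Genes were named by rule: the 5 largest changes in each direction, the 5 highest and lowest TPM, the 5 largest ratio changes and 5 most unequal pairs, paralogues and their namesakes, stalk genes, rpl5, rpl11, rps6, rows under the filter, and the ends of each related list; rpl10, rps27.L in morphants, rps25, the other called pairs and pair partners were added after their values were seen. Some results for genes that this rule covers are not reported here.

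Counts were tested with edgeR 4.0.16 (robust quasi-likelihood fit, filterByExpr by group, TMM) on the 2 groups compared, with Benjamini-Hochberg adjustment over all genes and a limit of 0.05. Each SE was derived from the fold change and its F statistic and is approximate. Homeolog ratios, with a prior of 0.5 counts, were tested with limma 3.58.1, and DESeq2 1.42.0 was an alternative, in R 4.3.3. The procedures were run on simulated counts in which 200 genes were changed by known folds. The simulated libraries were drawn without pairing. That run therefore does not test the replicate block on paired libraries, or TMM where many more genes differ. Libraries of a group differed by a chi-square of 44.7 to 110 per gene, far above sampling noise. Intervals cover counting error only. The methods speak of biological replicates but the labels give no separate clutches, so p-values measure only the spread between these samples, which may be technical.

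Across genes, deviations from the group mean correlated at 0.855 to 0.868 between St9 libraries of the same number and at -0.480 to -0.378 between different numbers, above the limit of 0.1 for each pair, so the St9 numbers were taken as pairs. This pairing was read from the counts, because no label states the meaning of the numbers.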

Additional observations from a re-analysis of the deposited data

How the results depend on the processing

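In NPB against wild type, leaving out each library in turn gave 130 to 132 rows higher and a median log2 fold change of 1.62 to 2.09, and no named row lost its call. Library totals gave a median of 1.17 (1.16 with the replicate block) and took the call from 10 named rows. With L and S counts summed, 75 genes were higher with and without the replicate block, since fewer features were tested. The numbers did not pair NPB with wild type (same-number correlations of -0.0574 to -0.0110). With the replicate block 131 rows were higher, without rpl24.S, where 5328 of all 21981 genes tested were called higher and 5176 lower. In the same setting 10 homeolog pairs were called. Leaving out a library gave 10 to 14 called pairs, and the replicate block without number 1, 2 or 3 gave 5, 3 and 1, from fewer samples. For fits with summed copies, a left-out library or pair, or totals with the block, shares of all genes or pairs called are not given. The same holds for the blocked homeolog ratios of NPB. The uncalled copies of rps27l turned direction. For rps27l.L the log2 fold change was 0.00986 with DESeq2, 0.01003 with RLE scaling, 0.0997 with DESeq2 and the replicate block, 0.0465 with the replicate block, 0.12 and 0.31 with it and without number 2 or 3, 0.0189 without NPB replicate 2, and between -0.335 and 0.324 over all left-out libraries. For rps27l.S it was -0.55 with library totals, -0.73 with totals and the replicate block, -0.0448 with the replicate block, -0.11 and -0.56 with it and without number 1 or 2, -0.256 without wild type replicate 1, and between -0.869 and 0.471 over all left-out libraries. In morphants against wild type, counts of rows higher and lower were 2 and 1 with DESeq2, 4 and 2 with DESeq2 and the replicate block, 5 and 2 with the replicate block with TMM or totals, and 2 and 1 with L and S summed and the replicate block. Without pair 1, 2 or 3 the replicate block gave 3 and 2, 4 and 2, and 3 and 7. The median was 0.11 without pair 2 and -0.0709 without pair 3, and -0.0421 to 0.0738 with a single library left out. The replicate block called 2 homeolog pairs, and 1, 1 and 2 without pair 1, 2 or 3. Without pair 1 rps21.L turned to 0.0238. The causes were not tested. Settings that joined the block with DESeq2, totals, summed copies or a left-out pair were chosen after seeing the data. The share of NPB was 3.95% in TPM, with an L share of 54.4%, and the morphant share was 0.730% of counts without the 20 most abundant other genes. With a library left out, shares were 1.30 to 1.60% in NPB, 0.689 to 0.704% in morphants and 0.638 to 0.712% in wild type, and L shares 52.5 to 53.2%, 52.1 to 52.5% and 50.8 to 51.3% in the same order. Of 964 values of named genes and pairs under other settings, 864 kept direction and side of the threshold. Groups of 3 libraries and unstated handling of reads shared by near-identical copies limit precision.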
